A study of Mus musculus with 19 samples.

Results

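The 47 genes described here encode metalloproteases that cut the extracellular matrix and the proteins on cell surfaces, and the inhibitors of those enzymes. There are 18 matrix metalloproteases (Mmp), 18 Adamts proteases, 7 Adam proteases and the 4 tissue inhibitors of metalloproteases (Timp). They were chosen by name, out of 20656 genes with a probe on the array, and each was read from its brightest probe. Matrix metalloproteases are zinc enzymes that are made as inactive precursors, and they include collagenases that cut fibrillar collagen, gelatinases that cut denatured and basement membrane collagen, stromelysins with broad targets that can also activate other members, and membrane-bound types that act at the cell surface. Adamts proteases are secreted and act on proteoglycans such as aggrecan and versican, on the propeptides of procollagens or on other matrix proteins, while Adam proteases mostly sit in the membrane and release the outer parts of surface proteins. Timps bind the active site of these enzymes and block them, and fibroblasts are a main source of both enzymes and inhibitors in connective tissue.

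The samples were fibroblasts grown from 7 organs of adult mice aged 8 to 10 weeks (skin, tail, gonad, heart, kidney, liver and lung), and they were compared to ask how far cells grown alike differ with the organ they came from. The labels describe 1 protocol for all groups, in which tissue was digested with trypsin or with collagenase type II, so digestion may differ between organs, and the cells grew for 5 days in medium with 10% serum, with no other treatment. Kidney and skin had 2 samples and the other 5 organs had 3, and because scanner output for lung replicate 2 was not analysed here, 18 arrays entered the tests. The labels name no strain, sex, sorting step or kind of gonad, nor which enzyme was used on which organ, and do not tell if each replicate is an animal of its own, so p-values measure only the spread between these samples, which may be technical. The cells are outgrowths of bulk tissue, in which fewer cells of a type and less RNA per cell cannot be told apart.

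Levels are given as log2 of the background-subtracted spot signal less the 75th percentile of the array, so that 0 is the level of a probe at that percentile, and the levels of different genes are not compared, because each is read by a probe of its own. On 5 arrays (gonad 3, heart 1, kidney 1, kidney 2 and tail 2) the dark control spots read above the range that the scanner software accepts, and 84.9% to 96.6% of probes were well above background there against 51.2% to 77.2% on the 13 other arrays. On these 5 high-background arrays the values of the 47 genes were drawn together, with an interquartile range of 2.35 to 5.61 against 5.69 to 9.55 on the others. The tests use all 18 arrays, and results are given beside them on the 13 other arrays, which hold no kidney, and on those 13 after normexp background correction and quantile normalization, which damps differences between dim probes. In the 6 organs other than kidney, all 12 fibroblast markers of the list were well above background on every array. Their summed level (linear, in units of the 75th percentile) was 1440 to 1846 in gonad, 448 to 2501 in heart, 1644 to 2264 in liver, 1885 to 1971 in lung, 2075 to 2304 in skin and 1453 to 2058 in tail, but 144 to 284 in kidney, where 11 of 12 were well above background on both arrays. Both kidney arrays are high-background arrays, and markers of simple epithelium were at their highest there, at a summed level of 93.3 to 122. That sum was 30.6 to 86.5 in lung, 8.05 to 82.0 in liver and 0.74 to 10.7 in the other organs. By correlation over all genes, the closest array to each was from its own organ for 15 of 18, with gonad 3, heart 1 and liver 3 as exceptions.

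Of the matrix metalloproteases, 6 lie in a row of 10 protein-coding genes on chromosome 9, in the order Mmp13, Mmp12, Mmp1b, Mmp3, Mmp1a, Mmp10, Mmp8, Mmp27, Mmp20 and Mmp7 (RefSeq, GRCm38.p6). The 6 among the 47 genes are Mmp13, Mmp12, Mmp3, Mmp10, Mmp8 and Mmp7. RefSeq promoter entries of 300 bases (250 before the start and 50 after it) were matched for 31 of the 47 genes, with 36 entries in all. The AP-1 site TGAGTCA, searched on both strands, was found in 6 of the 36 (16.7%) against 5.20% of 32851 promoters, and 5 of those 6 belong to the row on chromosome 9. The sixth was that of Adam19. The letters TATAAA, searched on both strands, were in 7 of 36 (19.4%) against 13.6% of all. A nuclear factor kappa B motif, on both strands, was in 0 of 36 against 1.63% of all. The 5 neighbours with an AP-1 match are shown here because they are members of 1 gene row that share this site near the start, and because Mmp3 among them had the widest range between organs of the 47 genes. Each sequence is the 150 bases before the start on the plus strand, with capitals for TGAGTCA or its complement TGACTCA and for TATAAA on the gene's strand, and no 2 of these matches overlap. In genome order they lie at chr9:7272364-7272513 (Mmp13), chr9:7347224-7347373 (Mmp12), chr9:7445672-7445821 (Mmp3), chr9:7502192-7502341 (Mmp10), chr9:7691940-7692089 (Mmp7).
Mmp13: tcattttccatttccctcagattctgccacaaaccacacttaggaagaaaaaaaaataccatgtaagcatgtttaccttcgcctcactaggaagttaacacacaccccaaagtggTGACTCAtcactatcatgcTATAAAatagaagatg
Mmp12: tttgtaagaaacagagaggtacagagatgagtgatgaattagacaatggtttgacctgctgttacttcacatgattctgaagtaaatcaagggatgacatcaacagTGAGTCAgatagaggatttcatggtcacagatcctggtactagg
Mmp3: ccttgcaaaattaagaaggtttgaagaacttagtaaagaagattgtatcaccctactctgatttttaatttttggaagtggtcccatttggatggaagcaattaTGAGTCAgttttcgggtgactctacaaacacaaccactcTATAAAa
Mmp10: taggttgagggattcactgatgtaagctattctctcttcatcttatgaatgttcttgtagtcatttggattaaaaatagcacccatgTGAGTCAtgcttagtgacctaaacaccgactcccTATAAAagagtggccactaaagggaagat
Mmp7: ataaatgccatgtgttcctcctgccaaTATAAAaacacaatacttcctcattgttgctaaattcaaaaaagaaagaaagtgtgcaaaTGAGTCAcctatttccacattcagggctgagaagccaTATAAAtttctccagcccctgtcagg
The AP-1 match begins 35 bases before the start in Mmp13, 44 in Mmp12, 46 in Mmp3, and 63 in both Mmp10 and Mmp7. Mmp12 and Mmp7 each have another promoter entry, with a different start, that holds no AP-1 match and is not shown. In Mmp13, Mmp3 and Mmp10 a TATAAA follows it, in Mmp7 a TATAAA stands on either side of it, and in Mmp12 none stands in this window on the gene's strand. A match is a description of the letters and not of binding.

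By limma's F test over the 7 organs, 25 of the 47 genes (53.2%) differed at an adjusted p under 0.05, where 34 percent of all 19717 genes tested did. All 47 passed the filter of being well above background on at least 2 arrays, but only 26 were well above it on all 18. The F test called 21 of those 26 and 4 of the other 21. Refitted on only the genes well above background on every array, it called 24 of 26, beside 75.8 percent of 11955 such genes. By family the fit of all 19717 genes called 9 of 18 Mmp genes, 8 of 18 Adamts genes, 6 of 7 Adam genes and 2 of 4 Timps. The median range between the highest and lowest organ mean was 3.63 for the 47 genes and 2.82 for all genes. On the 13 arrays, 32 of 47 genes were called against 47.1 percent of all genes, and with normexp there 28 against 41.8 percent. The count rests on single arrays, and so does that of all genes. It was 16 without tail 1, where 16.7 percent of all genes were called. The count was lowest, for the 47 genes and for all genes, without kidney 1 or without kidney 2, where a single kidney array was left. It was 42 without heart 1 or gonad 3, where 81.6 and 71.5 percent of all genes were called. In the map of the 47 genes by array, dim genes, such as Adamts16 to Adamts19, appear high in the 5 high-background columns. On heart 1 and both kidney arrays bright genes, such as Timp2 and Adamts2, appear low.

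**Figure D1:**
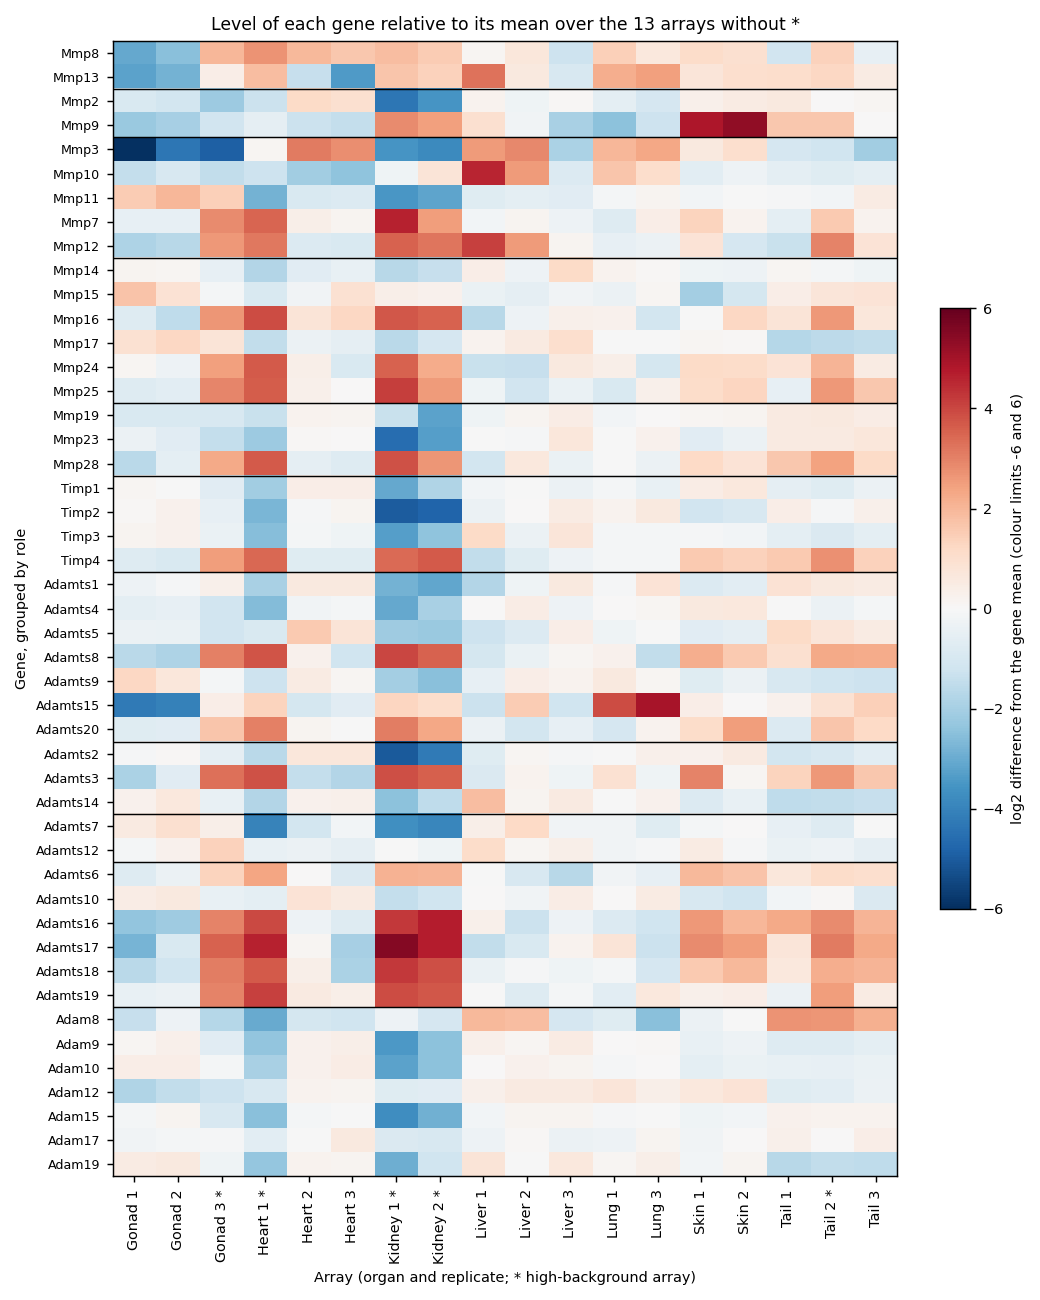
Log2 level of each of the 47 genes (rows, grouped by role) on each of 18 arrays (columns), as the difference from the mean of that gene over the 13 arrays without a star. Starred columns are the 5 high-background arrays; Mmp3 is low on the 3 gonad arrays and Mmp9 is high on both skin arrays.

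Organ by organ, a gene was called where its organ mean differed from the mean of the other 6 organ means by at least 1 on the log2 scale at an adjusted p under 0.05 (limma, Benjamini-Hochberg over all genes). In gonad 2 of the 47 genes were higher (background 2.13 percent of all genes) and 4 lower (background 0.811 percent), 12.8% against 2.94 percent of all genes for both directions. Without gonad 1 the 6 became 2 and without gonad 2 they became 3, where 212 and 225 of all 19717 genes were called. Without gonad 3 they became 12, with 2525 of all genes called. In skin 1 was higher (background 0.73 percent, and 1.39 percent in either direction), in tail 1 was higher (background 4.08 percent) and 1 lower (background 2.19 percent, and 6.27 percent in either direction), and in skin and tail together, set against the 5 internal organs, 3 were higher (background 2.56 percent, and 4.25 percent in either direction) and 0 lower (11 of 47 had an unadjusted p under 0.05). The median log2 difference of the 47 genes was -0.34 in gonad, -0.027 in heart, 0.41 in liver, 0.31 in lung, 0.38 in skin, 0.40 in tail and 0.50 in skin and tail, beside -0.059, -0.11, 0.12, 0.083, 0.38, 0.34 and 0.44 for all genes. The other 3 comparisons gave no call: limma called 0 of 47 in heart (background 3.76 percent), in liver (background 1.82 percent) and in lung (background 0.533 percent), where 8, 18 and 8 genes had an unadjusted p under 0.05. Leaving out heart 1 alone gave 7 calls in heart (2069 of all 19717 genes), 4 in liver (1019), 3 in lung (622), 6 in skin (1244) and 10 in tail (1984). Without liver 3 there were 4 calls in heart (734), 2 in liver (246) and 1 in lung (105). Lung also had 1 call without gonad 3 (110), liver 1 (124) or liver 2 (98). Heart had 1 without gonad 3 (827) or tail 3 (631), and tail had 4 without heart 2 (1356). Skin and tail had 1 call without lung 3 or without any 1 array of skin or tail, and skin had 0 without skin 2.

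In kidney 37 of 47 genes were called, 15 higher and 22 lower, and nothing is read from this count because 77.8 percent of all genes were called there (35.5 percent higher and 42.3 percent lower). Without kidney 1 the count was 6 and without kidney 2 it was 21. Of the 26 genes well above background on every array, kidney had the lowest organ mean for 20 and the highest for 1, and over all 47 it had the highest mean for 15. The genes called higher in kidney were Mmp7, Mmp9, Mmp16, Mmp24, Mmp25, Mmp28, Timp4, Adamts3, Adamts6, Adamts8, Adamts16, Adamts17, Adamts18, Adamts19 and Adamts20. Beside this stand the kidney arrays' high background, 11 of 12 fibroblast markers called lower and 7 of 7 markers of simple epithelium called higher in kidney, and their part in the result was not tested.

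**Figure D2:**
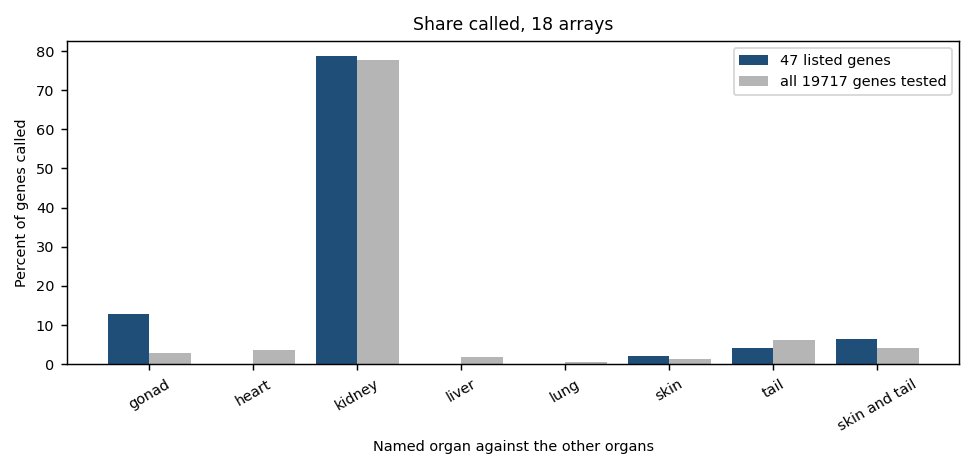
Percent of the 47 genes (dark bars) and of all 19717 genes tested (grey bars) called in each comparison of an organ with the others on 18 arrays. Gonad has 12.8% of the 47 genes against 2.94% of all, and kidney has about the same high share of both.

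Among the stromelysins, Mmp3 (stromelysin 1, which cuts proteoglycans and fibronectin and activates procollagenases) was low in gonad and high in heart, liver and lung. Its levels were -6.07, -2.51 and -3.05 in gonad, 1.97, 4.97 and 4.62 in heart, -1.70 and -2.01 in kidney and 4.41, 4.72 and -0.062 in liver. The arrays read 3.85 and 4.15 in lung, 2.42 and 2.82 in skin and 0.81, 0.67 and -0.24 in tail. All 3 gonad arrays lay below every other array, both kidney arrays came next, and heart, lung and 2 of 3 liver arrays were high. Gonad was lower than the other organs, with a log2 difference of -5.89 ± 0.93 (adjusted p = 0.00252) by limma. It was -7.24 ± 1.20 (adjusted p = 0.00315) on the 13 arrays and -4.37 ± 0.80 (adjusted p = 0.00355) with normexp there. Within the 3 slides the difference was -8.48, -4.42 and -4.90. Liver 3, at -0.062, stood apart from liver 1 and 2, at 4.41 and 4.72, and it is also the liver array that lay nearest to a lung array.

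Mmp10 (stromelysin 2) and Mmp13 (collagenase 3, the main collagenase of rodent fibroblasts) were not called in any organ on 18 arrays. Mmp10 was measured on all 18 arrays and differed by the F test (adjusted p = 0.04), with levels of 3.73, 1.71 and -1.64 in liver and 0.81 and 0.21 in lung against -2.06, -2.91 and -3.24 in heart. The 3 liver arrays spread widely, and liver 3 lay between the gonad and the tail arrays. Mmp13 had organ means of -4.72 in gonad to -0.51 in lung, with single arrays from -6.23 on heart 3 to 0.42 on liver 1, and it was well above background on 1 of 3 arrays in gonad and in heart. Gonad was at least 7.75-fold lower on the 13 arrays (adjusted p = 0.0184), a call that was absent with normexp (-1.01). Mmp8 (neutrophil collagenase) read -6.36, -5.78 and -1.31 in gonad, which was at least 5.97-fold lower on the 13 arrays, with a difference of -0.70 with normexp. Mmp12 (macrophage elastase) was well above background on 7 arrays, at -1.35, -2.90 and -5.30 in liver, and with normexp on 13 arrays liver was higher by 1.17 ± 0.27 (adjusted p = 0.0209). Without normexp the difference on those arrays was 2.95 ± 0.77 (adjusted p = 0.0515), not called, and on 18 arrays liver was not called either. Macrophage markers had a summed level of 50.6 to 59.8 in liver and 38.8 to 69.2 in gonad. Of 8 tested, Lyz2 and Mrc1 were called higher in liver, where 1.82 percent of all genes were called in either direction. The part of macrophages in the Mmp12 value was not tested. Mmp7 (matrilysin, an epithelial enzyme) was well above background on 4 arrays, all of them high-background arrays.

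Among the 6 genes of the chromosome 9 row, each taken with the next of the 6, Pearson's r over the 13 arrays, which share organs and scaling, was 0.58 for Mmp13 with Mmp12, 0.46 for Mmp12 with Mmp3, 0.38 for Mmp3 with Mmp10, 0.14 for Mmp10 with Mmp8 and 0.52 for Mmp8 with Mmp7. Over all 18 arrays, r ran from 0.0033 for Mmp10 with Mmp8 and 0.022 for Mmp12 with Mmp3 to 0.64 for Mmp8 with Mmp7. Mmp7 was well above background on 4 arrays, all of them high-background arrays, and Mmp12 on 7. The r values of both genes therefore rest largely on signals near background, and those of Mmp7 over the 13 arrays wholly so. Of 3 pairs further apart in the row, r over the 13 arrays was 0.92 for Mmp3 with Mmp8, 0.78 for Mmp10 with Mmp13 and 0.52 for Mmp3 with Mmp13, and over all 18 it was 0.48, 0.67 and 0.34. The genes with the AP-1 match shown above did not share 1 pattern over organs: Mmp3 was high in heart, where Mmp10 was at its lowest. Of the other neighbouring pairs among the 47 genes, Adamts1 and Adamts5 on chromosome 16 had r of 0.84 over the 13 arrays and Adamts15 and Adamts8 on chromosome 9 had r of 0.30.

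**Figure D3:**
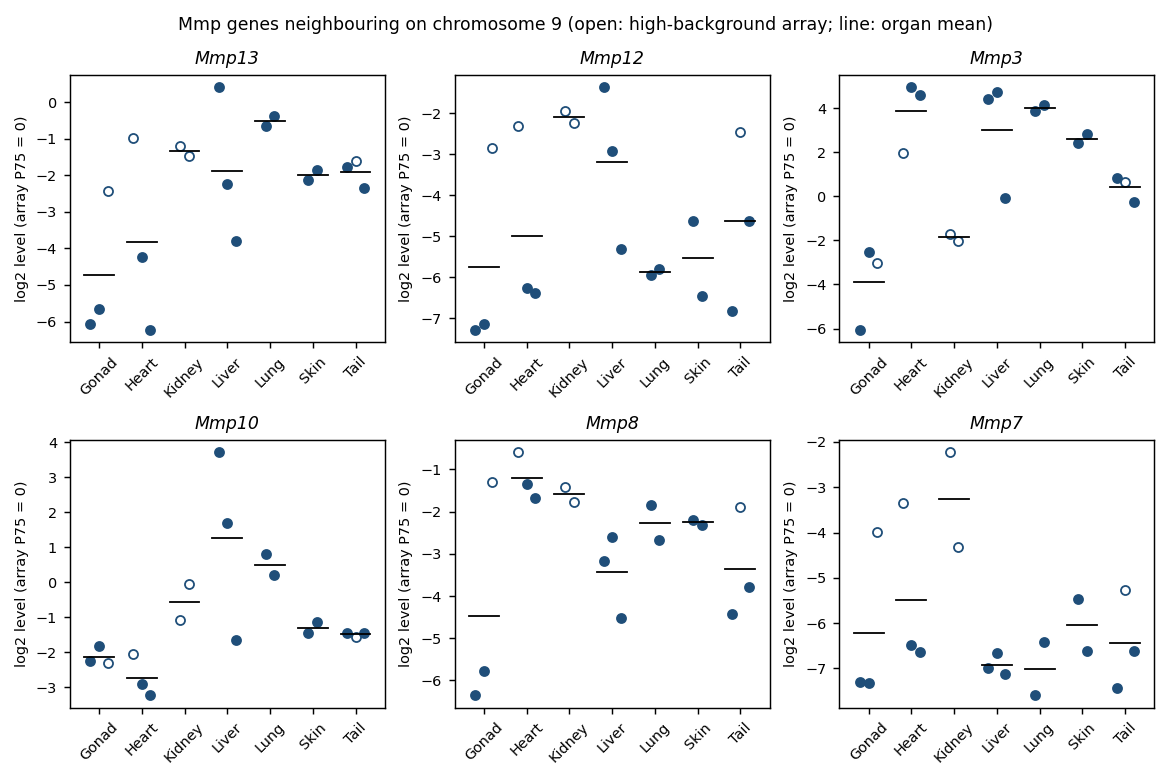
Log2 levels (array 75th percentile at 0) of the 6 Mmp genes of the chromosome 9 row on each array by organ, with open circles for high-background arrays and a line at the organ mean. Mmp3 is lowest in gonad and high in heart, lung and 2 of 3 liver arrays, while Mmp10 is highest on liver 1 and lowest in heart.

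Of the gelatinases, Mmp9 (gelatinase B, known from leukocytes, keratinocytes and activated stromal cells) was the 1 gene of the 47 whose level in an organ, skin, was above that of all 6 others pair by pair, where 1.45 percent of all genes had such an organ. Its levels were -7.25, -7.03 and -6.16 in gonad, -5.57, -6.32 and -6.45 in heart, -2.16 and -2.56 in kidney and -4.04, -5.22 and -6.96 in liver. Values were -7.47 and -6.25 in lung, -0.16 and 0.31 in skin and -3.40, -3.42 and -4.99 in tail. Both skin arrays lay above all others, both kidney arrays came next, and no array of gonad, heart or lung was well above background. Skin was at least 20.1-fold higher than the other organs (fitted log2 difference 5.33 ± 0.62 (adjusted p = 0.00085) by limma), at least 27.2-fold on the 13 arrays and 2.96 ± 0.24 (adjusted p = 2.67e-05) with normexp there. Without skin 2 the value was 5.09 and no longer called, and the single skin array left is then assumed to vary like the other organs. Skin and tail together were at least 5.36-fold higher than the internal organs (fitted 3.58 ± 0.44 (adjusted p = 0.000232)), although slide 3, which has no skin array, gave 0.0054. Gonad was at least 1.98-fold lower (fitted -2.71 ± 0.52 (adjusted p = 0.00995)), a call lost without gonad 1 (-2.50) or gonad 2 (-2.60), under quantile normalization (-1.60), with normexp and quantile normalization of 18 arrays (-0.79) and with the same on the 13 arrays (-0.78).

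Markers of other cell types that can make Mmp9 were also tested. Called higher in skin were 1 of 7 for keratinocytes, 1 of 8 for macrophages and 1 of 8 for neutrophils. Of all genes, 0.73 percent were called higher there. The median log2 differences of these 3 lists in skin were 0.43, -0.027 and 0.65, beside 0.38 for all genes. Keratinocyte markers had a summed level of 12.5 to 15.3 in skin against 4.97 to 9.61 on all other arrays, with Krt14 called higher in skin by 5.65 ± 0.74 and Krt1 not well above background there. Of the macrophage markers Csf1r was higher in skin, by 2.06 ± 0.46, while the list's sum was 43.3 to 45.5 in skin and 38.8 to 69.2 in gonad. Of the neutrophil markers Camp was higher in skin, by 3.34 ± 0.45, Ltf was not well above background, and the sum was 63.4 to 68.1 in skin against 91.3 to 111 in lung. Their part in the Mmp9 result was not tested.

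Mmp2 (gelatinase A, the gelatinase that fibroblasts make constitutively) was well above background on every array. Its levels were 3.21, 3.04 and 1.96 in gonad, 2.83, 5.28 and 5.11 in heart, -0.23 and 0.60 in kidney and 4.32, 3.89 and 4.19 in liver. They were 3.53 and 3.11 in lung, 4.43 and 4.60 in skin and 4.70, 4.16 and 4.26 in tail. The kidney arrays and the high-background arrays of gonad and heart were the lowest. Skin and tail were higher than the internal organs by 1.49 ± 0.37 (adjusted p = 0.0347) on 18 arrays, but by 0.55 on the 13 arrays and 0.60 with normexp, both below the fold threshold. The call was also lost without any 1 of kidney 1, liver 1, liver 2, liver 3, lung 1, lung 3, skin 1, skin 2, tail 1, tail 2 and tail 3, with values of 1.40 to 1.54. On the 13 arrays gonad was lower, with a log2 difference of -1.20 ± 0.18 (adjusted p = 0.00196) and heart higher by 1.28 ± 0.18 (adjusted p = 0.00179), and with normexp these were -1.14 and 1.09, both called. On those arrays heart 2 and heart 3, at 5.28 and 5.11, lay above every other array.

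Mmp11 (stromelysin 3, a stromal enzyme that is activated inside the cell and hardly cuts classical matrix proteins) was highest in gonad. Its levels were 5.53, 6.0 and 5.42 in gonad, 1.16, 3.11 and 3.19 in heart, 0.51 and 0.86 in kidney and 3.28, 3.41 and 3.34 in liver. The arrays read 3.88 and 4.16 in lung, 3.82 and 3.97 in skin and 3.92, 3.84 and 4.48 in tail. All 3 gonad arrays, the high-background one included, lay above every other array, and gonad was higher by 2.57 ± 0.36 (adjusted p = 0.00115). On the 13 arrays the difference was 2.04 ± 0.18 (adjusted p = 0.000239) and with normexp 1.94 ± 0.16 (adjusted p = 2.96e-05), while within the 3 slides it was 2.39, 2.71 and 2.53. A second Mmp11 probe ran with the first (r = 0.995 over 18 arrays) and was called the same way. Heart was lower on the 13 arrays, with a log2 difference of -1.09 ± 0.18 (adjusted p = 0.00389), with -1.05 under normexp.

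Of the 6 membrane-type enzymes, Mmp17 (MT4-MMP, held to the membrane by a lipid anchor) was called in 2 organs. Its levels were 2.96, 3.28 and 2.82 in gonad, 0.57, 1.69 and 1.51 in heart, 0.43 and 1.05 in kidney and 2.26, 2.58 and 3.07 in liver. Values were 2.01 and 2.00 in lung, 2.18 and 2.09 in skin and 0.31, 0.47 and 0.57 in tail. The tail arrays lay below all others except kidney 1 and heart 1, both high-background arrays, with which they overlapped, and gonad shared the top of the range with liver 3. Gonad was higher by 1.49 ± 0.28 (adjusted p = 0.00832) and tail lower, with a log2 difference of -1.51 ± 0.28 (adjusted p = 0.00377). On the 13 arrays these differences were 1.36 and -1.86, and with normexp 1.13 and -1.52, all called. The gonad call was lost without gonad 1 (1.52) or gonad 2 (1.35), while the tail call stood with any 1 array left out.

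Mmp14 (MT1-MMP, the collagenase of the cell surface and an activator of pro-Mmp2) had its lowest organ mean in kidney. Its levels were 3.73, 3.68 and 3.03 in gonad, 1.81, 2.89 and 3.10 in heart, 1.87 and 2.15 in kidney and 3.95, 3.25 and 4.69 in liver. They were 3.78 and 3.63 in lung, 3.28 and 3.23 in skin and 3.64, 3.45 and 3.29 in tail. Organ means ran from 2.01 in kidney to 3.96 in liver, the F test called it (adjusted p = 0.0451), and no organ other than kidney was called on 18 arrays. Mmp15, well above background on 16 arrays and on neither skin array, had organ means of -5.21 in skin to -2.86 in gonad, and its calls on the 13 arrays, higher in gonad and lower in skin, were absent with normexp. Mmp16, Mmp24 and Mmp25 were well above background on 9, 10 and 5 arrays, and their highest organ mean was that of kidney. Of the remaining enzymes, Mmp19 and Mmp23 were measured on all arrays and were highest in tail, at means of 0.18 ± 0.072 and 5.57 ± 0.069 (SD, n = 3), without a call outside kidney on 18 arrays. Mmp19 was lower in gonad on the 13 arrays, with a log2 difference of -1.08 ± 0.16 (adjusted p = 0.0021), but with normexp the difference, -0.71, was under the fold threshold. Mmp28 was well above background on 7 arrays.

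**Figure D4:**
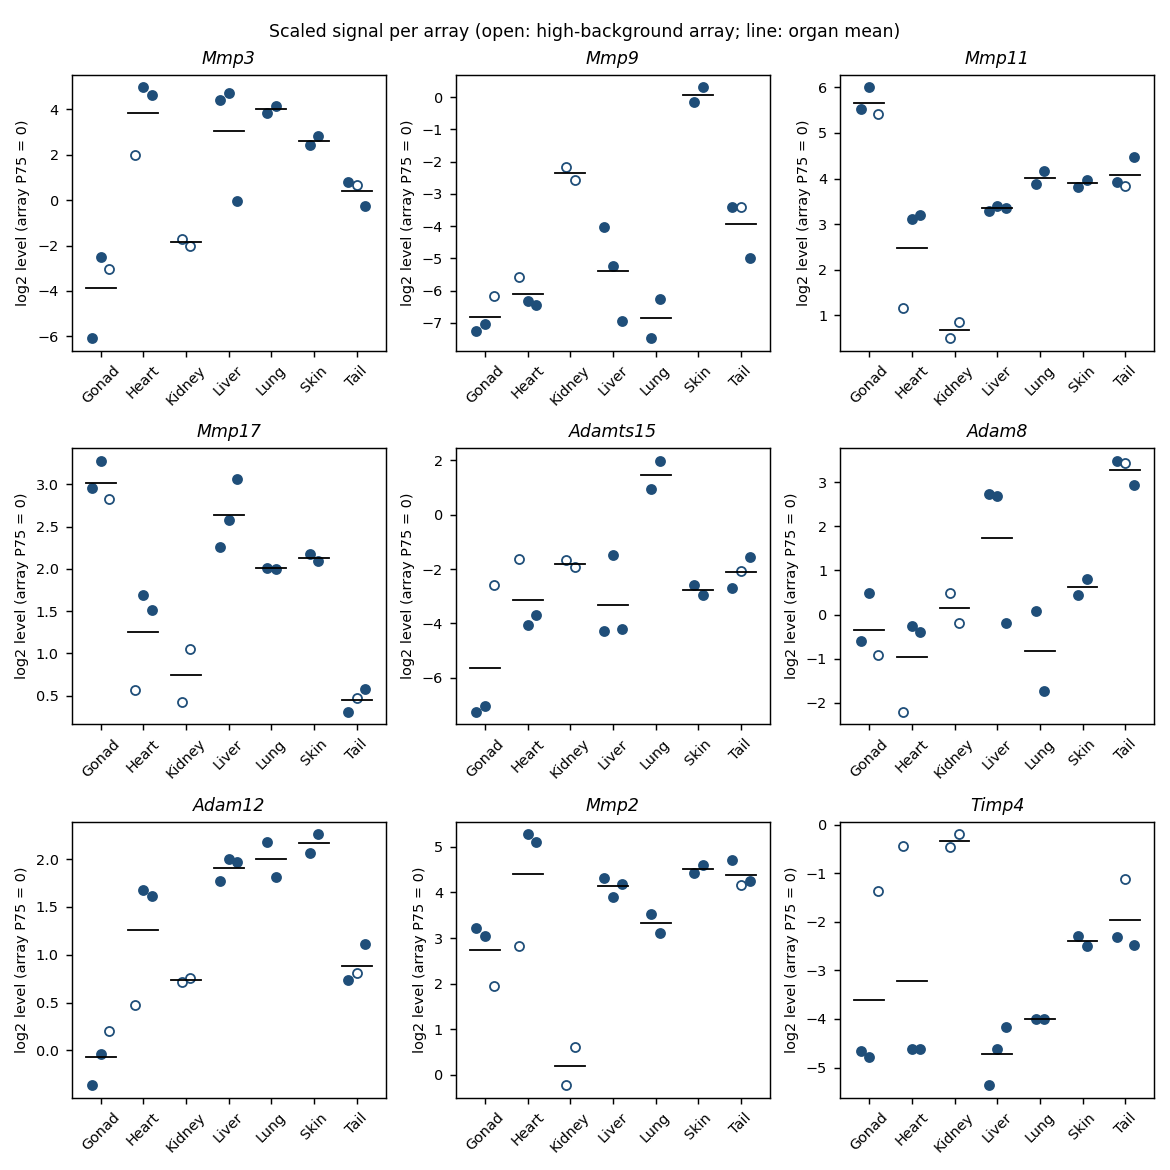
Log2 levels (array 75th percentile at 0) of 9 of the genes on each array by organ; open circles are high-background arrays and lines are organ means. Mmp9 stands out in skin, Mmp11 and Mmp17 are highest in gonad, Mmp3, Adamts15 and Adam12 lowest there, Adam8 highest in tail and Adamts15 highest in lung; Timp4 is high on the open circles.

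The Timps, the inhibitors of these enzymes, were called in no organ other than kidney. Timp1, a secreted inhibitor that cells make in response to growth factors and cytokines, had levels of 8.36, 8.24 and 7.55 in gonad, 6.15, 8.67 and 8.64 in heart, 5.20 and 6.45 in kidney and 8.10, 8.24 and 7.90 in liver. The arrays read 8.13 and 7.79 in lung, 8.69 and 8.86 in skin and 7.73, 7.52 and 7.88 in tail. Timp2, which also takes part in the activation of pro-Mmp2 by Mmp14, had levels of 8.73, 8.90 and 8.18 in gonad, 5.93, 8.61 and 8.81 in heart, 3.69 and 3.88 in kidney and 8.33, 8.67 and 9.17 in liver. Values were 8.88 and 9.24 in lung, 7.52 and 7.68 in skin and 9.07, 8.57 and 8.99 in tail. Timp3, the inhibitor bound to matrix, had levels of 7.11, 7.17 and 6.54 in gonad, 4.38, 6.83 and 6.69 in heart, 3.63 and 4.50 in kidney and 8.07, 6.58 and 7.67 in liver. They were 6.82 and 6.79 in lung, 6.87 and 6.79 in skin and 6.35, 6.04 and 6.36 in tail. The kidney arrays were the lowest for Timp2, and kidney and heart 1 held the 3 lowest values of all 3 inhibitors. Skin was lower in Timp2 on the 13 arrays, with a log2 difference of -1.27 ± 0.20 (adjusted p = 0.00261) and -1.32 with normexp, and its arrays at 7.52 and 7.68 lay below the other 11. Timp4, an inhibitor with restricted expression, had levels of -4.66, -4.79 and -1.36 in gonad, -0.43, -4.62 and -4.62 in heart, -0.47 and -0.20 in kidney and -5.36, -4.61 and -4.17 in liver. The arrays read -4.00 and -3.99 in lung, -2.30 and -2.49 in skin and -2.31, -1.12 and -2.48 in tail. It was higher in skin and tail on the 13 arrays, by at least 4.15-fold (adjusted p = 9.41e-05), where 23.8 percent of all genes were called higher, and with normexp the difference was 0.36 and not called. Its highest values were those of the kidney arrays and heart 1.

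Of the proteoglycan-cutting Adamts genes, Adamts15 (a versican- and aggrecan-cutting enzyme) ranged most. Its levels were -7.24, -7.03 and -2.60 in gonad, -1.64, -4.05 and -3.68 in heart, -1.68 and -1.92 in kidney and -4.27, -1.47 and -4.20 in liver. Values were 0.95 and 1.98 in lung, -2.59 and -2.94 in skin and -2.72, -2.08 and -1.55 in tail. Gonad 1 and 2 lay below every other array and were not well above background, while gonad 3, a high-background array, lay within the range of the other organs. Both lung arrays lay above the rest. Gonad was lower, with a log2 difference of -3.68 ± 0.85 (adjusted p = 0.0309) on 18 arrays and by at least 8.97-fold on the 13 arrays (fitted -5.01 ± 0.66 (adjusted p = 0.00127)), with -1.51 ± 0.29 (adjusted p = 0.00504) under normexp. The call on 18 arrays was lost without any 1 of gonad 1, gonad 2, kidney 1, kidney 2, lung 3, skin 1, skin 2 and tail 3 (values of -3.71 to -2.88) and with the dark control level as a covariate (-3.57). Lung was higher by at least 30.7-fold on the 13 arrays (fitted 5.31 ± 0.66 (adjusted p = 0.00545); 2.03 percent of all genes called) and by 3.17 ± 0.29 (adjusted p = 0.000199) with normexp, but not called on 18 arrays (4.59 ± 1.01 (adjusted p = 0.0696)). In the value table, lung replicate 2 read 1.32 on the scale of raw signals, between lung 1 at 0.81 and lung 3 at 1.81.

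Adamts9 (a versicanase) was lower in tail and higher in gonad on the 13 arrays, with log2 differences of -1.34 ± 0.27 (adjusted p = 0.00639) and 1.16 ± 0.27 (adjusted p = 0.0129), with -1.10 and 1.00 under normexp. Its levels were 2.75, 2.17 and 1.38 in gonad and 0.52, 0.28 and 0.23 in tail, and the 18-array differences, 1.24 in gonad and -0.81 in tail, were not called. Adamts1, Adamts4 and Adamts5, enzymes that cut aggrecan or versican, differed by the F test, but their brightest probes were called in no organ other than kidney on 18 arrays. A second Adamts5 probe, well above background on all 18 arrays, ran with the first (r = 0.90). It was also called higher in tail, with a mean of 2.32 against -0.95 to 1.31 in the other organs. Adamts5, the main aggrecanase of mouse cartilage, had organ means of 0.0072 in kidney to 3.00 in tail and reached 3.76 and 2.98 on the 2 lower-background heart arrays, where heart was higher by 1.1 ± 0.30 (adjusted p = 0.0323) with normexp and by 1.34, not called, without it. Adamts8 and Adamts20 were well above background on 13 and 4 arrays, and kidney had their highest mean.

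The procollagen N-proteinases Adamts2, Adamts3 and Adamts14 remove the amino-terminal propeptides of fibrillar procollagens. Adamts14 was lower in tail on the 13 arrays, with a log2 difference of -1.68 ± 0.36 (adjusted p = 0.00888) (-1.46 with normexp), with levels of 1.34, 1.39 and 1.48 in tail against 4.74, 3.04 and 3.39 in liver, and was not called in tail on 18 arrays. Its 2 probes disagreed, with r of -0.69 over 18 arrays, so this result holds for the brighter probe alone. Adamts2 had organ means of 2.59 in kidney to 7.66 in skin and was lower in tail on the 13 arrays, with a log2 difference of -1.06, which normexp reduced to -0.96 without a call. Of the enzymes that cut cartilage oligomeric matrix protein, Adamts7 was well above background on 15 of 18 arrays (not on heart 1 or either kidney array), with organ means of -5.14 in kidney to -0.72 in gonad, and Adamts12 had the smallest range of the 47 genes, -1.03 in heart to -0.067 in gonad.

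Of the other Adamts genes, Adamts16 was higher in tail and skin on the 13 arrays. Its levels were -5.74, -5.52 and -0.41 in gonad, 0.59, -3.67 and -4.17 in heart, 0.87 and 1.34 in kidney and -3.06, -4.65 and -3.70 in liver. They were -4.18 and -4.57 in lung, -0.78 and -1.38 in skin and -1.07, -0.52 and -1.34 in tail. The 4 lower-background skin and tail arrays lay above the other 9 of the 13, and the kidney arrays were the highest of all. Skin and tail were at least 9.01-fold higher on the 13 arrays (fitted 3.29 ± 0.28 (adjusted p = 6.76e-05)), and 1.23 ± 0.13 (adjusted p = 6.89e-05) with normexp, where 2.47 percent of all genes were called higher. Without normexp 23.8 percent of all genes were called higher there, and the 12 of 47 genes called (25.5%) are near that share. Adamts10, linked to fibrillin microfibrils, was lower in skin, with a log2 difference of -1.28 ± 0.23 (adjusted p = 0.00408) on the 13 arrays and -1.01 with normexp. Adamts6, Adamts17, Adamts18 and Adamts19 had their highest mean in kidney and no call elsewhere on 18 arrays.

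Of the Adam genes, all 7 were well above background on every array. Adam8, a sheddase best known from leukocytes and osteoclast precursors, had levels of -0.60, 0.48 and -0.91 in gonad, -2.20, -0.27 and -0.40 in heart, 0.50 and -0.20 in kidney and 2.74, 2.68 and -0.18 in liver. The arrays read 0.089 and -1.72 in lung, 0.45 and 0.81 in skin and 3.49, 3.44 and 2.93 in tail. The 3 tail arrays lay above all others, the high-background one included, and liver 1 and liver 2 came next while liver 3 did not. Tail was higher by 3.22 ± 0.60 (adjusted p = 0.00433), by 2.97 ± 0.74 (adjusted p = 0.0158) on the 13 arrays and by 2.49 ± 0.51 (adjusted p = 0.00435) with normexp, and within the slides by 3.12, 4.01 and 2.46. Skin and tail together were higher by 2.00 ± 0.51 (adjusted p = 0.0384), which was lost without any 1 of gonad 1, kidney 1, kidney 2, lung 3, skin 1, skin 2, tail 1, tail 2 and tail 3 (1.82 to 2.09) and under quantile normalization (2.01). Of the 7 cartilage and bone markers tested, Comp alone was called in tail, where it was higher by 7.60 ± 0.59 and made up 98.1% to 98.3% of the summed level of that list. The macrophage markers summed to 18.7 to 24.7 in tail and 50.6 to 59.8 in liver, and the part of either in the Adam8 result was not tested.

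Adam12 (meltrin alpha, made by mesenchymal cells) was lowest in gonad. Its levels were -0.36, -0.042 and 0.20 in gonad, 0.48, 1.68 and 1.62 in heart, 0.72 and 0.75 in kidney and 1.77, 2.00 and 1.97 in liver. Values were 2.18 and 1.82 in lung, 2.07 and 2.26 in skin and 0.74, 0.81 and 1.11 in tail. The 3 gonad arrays lay below every other array, and the log2 difference of gonad was -1.56 ± 0.27 (adjusted p = 0.00497), -1.93 ± 0.16 (adjusted p = 0.000199) on the 13 arrays and -1.60 ± 0.13 (adjusted p = 2.11e-05) with normexp. Without gonad 1 the difference was -1.41 and no longer called. Within the 3 slides it was -1.89, -1.51 and -1.16, and a second of its 3 probes was called the same way. Adam19 (meltrin beta) was lower in tail on the 13 arrays, with a log2 difference of -1.88 ± 0.20 (adjusted p = 0.000323) and -1.72 ± 0.17 (adjusted p = 3.12e-05) with normexp, with levels of 2.90, 3.11 and 3.04 in tail against 5.06, 5.16 and 4.34 in gonad, and was not called in tail on 18 arrays (-1.26 ± 0.48 (adjusted p = 0.166)). The sheddases Adam9, Adam10, Adam15 and Adam17, which most cells express, had organ means within 3.25, 3.05, 3.53 and 1.14 of each other, with kidney lowest in all 4, and none was called in another organ.

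In all, 12 differences in 8 genes were called outside kidney on 18 arrays. On the 13 arrays 11 of the 12 were called again, and with normexp there 10 were. The 2 exceptions were Mmp2 in skin and tail, in both fits, and Mmp9 in gonad, with normexp only. Both 13-array fits also called 15 differences in 9 genes that the 18 arrays did not, of which those of Mmp2, Mmp11, Timp2, Adamts9, Adamts10, Adamts14, Adamts15, Adamts16 and Adam19 are described above. On the 13 arrays 17 of 47 genes were called in gonad (background 20.7 percent), 3 in heart (8.34 percent), 1 in liver (5.49 percent), 1 in lung (2.03 percent), 11 in skin (23.4 percent), 11 in tail (20.8 percent) and 17 in skin and tail (27.4 percent), and 2 were higher in a single organ than in all others (3.68 percent). With normexp there the counts were 7 in gonad (background 4.98 percent), 4 in heart (5.06 percent), 2 in liver (2.64 percent), 2 in lung (1.8 percent), 3 in skin (5.77 percent), 6 in tail (6.92 percent) and 6 in skin and tail (5.38 percent), and 3, Mmp9 in skin, Mmp11 in gonad and Adamts15 in lung, were higher in a single organ than in all others (3.24 percent). In gonad 4 of 6 smooth muscle markers were called higher, as were 2 of 8 endothelial markers, Cdh5 (4.14 ± 0.56) and Emcn (3.86 ± 0.67). Liver shared this, with 3 of 6 smooth muscle markers and the same 2 endothelial markers called higher. Of all genes, 2.13 percent were called higher in gonad, and 1.82 percent were called in liver in either direction. The summed endothelial level was 11.1 to 28.0 in gonad and 15.1 to 41.1 in liver. Among 6 mesothelial markers tested, Wt1 alone was called higher in gonad, 4 were higher in liver and 2 each in kidney and lung. In heart 2 of them were lower, and in skin and tail together 5 were. The part of smooth muscle, endothelial and mesothelial cells in the gonad results was not tested.

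**Figure D5:**
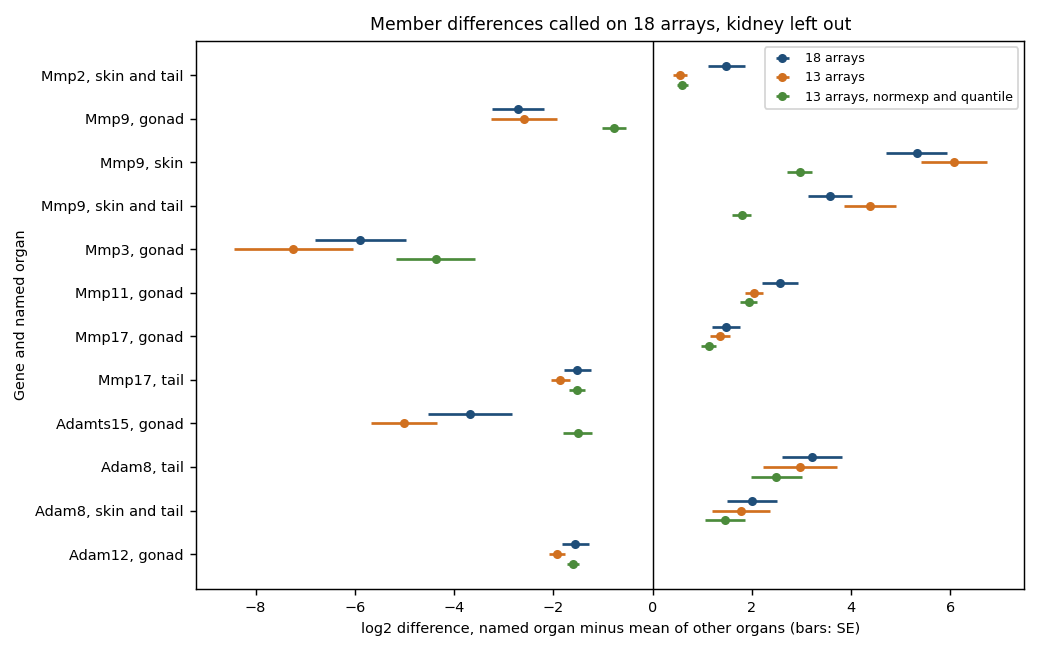
The 12 differences called outside kidney on 18 arrays, as the log2 difference of the named organ from the mean of the others with SE, in the fit of 18 arrays, of the 13 lower-background arrays and of those 13 with normexp and quantile normalization. Every point keeps its sign; Mmp2 in skin and tail shrinks from 1.49 to 0.55 and the Mmp9 and Adamts15 differences shrink with normexp.

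Of 47 other genes of matrix proteolysis (plasminogen system, cathepsins, procollagen processing, related Adam and Adamts-like genes), 43 were tested and the F test called 29, where it called 34 percent of all genes. In tail 6 were higher and 3 lower (background 6.27 percent in either direction), and the 4 with the largest differences were Adam33 (4.62 ± 0.36), Adamtsl1 (3.41 ± 0.39), Adamtsl2 (-2.21 ± 0.58) and Ctsk, the collagen-cutting cathepsin K (2.19 ± 0.44). In heart 2 were higher and 7 lower (background 3.76 percent), among them Serpinb2, at least 6.04-fold lower, Adamtsl2 (4.57 ± 0.58), Adam33 (-3.40 ± 0.36) and Plau, the urokinase plasminogen activator (-2.92 ± 0.38). In gonad 2 were higher and 2 lower (background 2.94 percent): Htra1 (2.26 ± 0.51), Tll1 (1.64 ± 0.39), Htra3 (-1.09 ± 0.27) and Thbs2 (-2.50 ± 0.44). Gonad had 5 higher and 10 lower on the 13 arrays (background 20.7 percent), and with normexp there 3 of each (background 4.98 percent). In skin Serpinb2, at least 17.5-fold, Pcsk5 (2.38 ± 0.53) and Thbs2 (4.13 ± 0.52) were higher. In liver Ctss, cathepsin S of macrophages, was at least 28.3-fold higher, and in lung Adam23 was higher by 2.98 ± 0.41. The adjusted p of each of these by limma was under 0.05, and each was called the same way in both fits of the 13 arrays except Htra3 in gonad, which was not called with normexp.

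Of 15 substrates of the enzymes, the F test called 12, against 34 percent of all genes. Comp, the cartilage oligomeric matrix protein that Adamts7 and Adamts12 cut, was higher in tail by 7.60 ± 0.59 and lower in gonad and liver, with log2 differences of -2.60 ± 0.59 and -3.50 ± 0.59. Lox, which crosslinks collagen, was higher in tail by 2.35 ± 0.47, and Vcan, the versican cut by several Adamts enzymes, was higher in skin and tail by 2.02 ± 0.43. Col2a1 was higher in heart by 5.22 ± 0.61. These 6 differences were also called, the same way, in both fits of the 13 arrays.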

How the data were processed

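Spot intensities were deposited by the authors as 1-colour scanner files, made with Agilent Feature Extraction 11.0.1.1 per the submitters' processing notes. The processed intensity is background-subtracted by that software per the file headers and not scaled between arrays. The value table deposited by the authors is an intensity as well; it equalled the raw spot medians on 18 arrays and alone gave lung replicate 2. Flags, another unit deposited by the authors, mark spots well above background and outliers; 2023 outlier values were set to missing, and no spot of a gene was saturated.

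Probes were named through RefSeq accessions (27229 of 55681). Log2 of the processed signal less the 75th percentile of each array was fitted with limma 3.58.1 (R 4.3.3) to 7 organ means, with 11 residual degrees of freedom, over 19717 genes well above background on at least 2 arrays. P-values were adjusted by Benjamini-Hochberg over all genes. Where an organ on the lower side was dim on every array, a bound of at least N-fold sets each array of that side to the higher of its own signal and the lowest signal well above background on it. The number of arrays limits the precision. In simulated data for gonad, 31 of 50 genes shifted by 3 on the log2 scale were recovered. Tables and figures used Python 3.11.15, numpy 2.4.6, pandas 2.3.3 and matplotlib 3.10.9.

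The genes and lists were chosen with earlier results of these data known. Genes called outside kidney, the Timps, Mmp2 and Mmp14 are given by array; those called in kidney alone are given by ranges, a change made after 77.8% of all genes were called there. Deviations of same-numbered replicates from their organ means had a median r of -0.037 over 46 pairs (-0.85 to 0.78). For 92 pairs of other numbers it was 0.017 (-0.84 to 0.90). With single pairs spread so widely this check cannot exclude pairing, and the numbers were not taken to pair samples. Alternatives covered background, scaling, filters, probes, slide, replicate number, control level, value table, threshold and each array left out; normexp on the 13 arrays was added after seeing the data.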

Additional observations from a re-analysis of the deposited data

How the results depend on the processing

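Counts of the 47 genes called by limma moved by over 1.5 times in these settings. Numbers in brackets are calls among all genes tested, 19717 unless stated, and shares for the 13 arrays are given above. With normexp and quantile normalization of 18 arrays there were 4 (884) in heart, 19 (7840) in kidney, 2 (472) in liver and 1 (249) in lung. There were 7 (1487) in tail, 5 (882) in skin and tail and 6 higher in 1 organ than in each other. With quantile normalization there were 5 (952) in heart, 20 (9628) in kidney, 1 each in liver (459) and lung (184), 7 (1618) in tail and 2 higher in 1 organ. With median scaling there were 2 (928) in heart, 3 (634) in skin and 8 (1677) in tail. The filter that requires every array above background left 26 of the 47 genes and 11955 in all. It gave 21 (9187) in kidney, 1 (337) in liver, 0 (289) in skin, 4 (1298) in tail and 0 higher in 1 organ. Slide as a term gave 1 (57) in lung and 0 higher in 1 organ. The value table with 19 samples gave 1 (787) in heart, 2 (515) in liver, 4 (492) in lung, 5 (1413) in tail and 4 higher in 1 organ. An adjusted p under 0.01 gave 9 by the F test, 19 in kidney, 1 in skin and tail and 0 higher in 1 organ. The 13 arrays gave 17 in gonad, 3 in heart, 1 each in liver and lung, 11 each in skin and tail, 17 in skin and tail together and 2 higher in 1 organ. With normexp on them there were 4 in heart, 2 each in liver and lung, 3 in skin, 6 each in tail and in skin and tail together and 3 higher in 1 organ. With the replicate number as a block, the F test called 16 (16.5 percent of all genes) and skin and tail had 1 (737). The labels do not say what the number marks.

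With each array left out in turn the F test called 10 to 42, and counts were 2 to 12 in gonad, 0 to 7 in heart, 6 to 39 in kidney, 0 to 4 in liver, 0 to 3 in lung, 0 to 6 in skin, 2 to 10 in tail, 1 to 4 in skin and tail and 0 to 4 for genes higher in 1 organ. The cause of these moves was not tested.

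None of the 12 differences called outside kidney reversed in another setting or with 1 array left out. Counting each difference once in each other setting, 138 of 151 such readings kept the call. With each array left out in turn, 182 of 216 readings kept it. In kidney 9 of 391 readings in the other settings reversed. With normexp and quantile normalization of 18 arrays, and with quantile normalization alone, the kidney difference became 0.15 and 0.19 for Adam19, 0.55 and 0.61 for Mmp14, -0.14 and -0.16 for Mmp9 and 0.19 and 0.17 for Timp1, and the mean of probes gave 0.37 for Adamts14, whose probes disagree. Setting saturated spots to missing was not run because no spot of a gene was saturated. Among all genes called in skin and tail, 60.2% were higher on 18 arrays and 87% on the 13 arrays, but 45.9% with normexp there. The median difference of all genes there was 0.44 on 18 arrays and 0.028 with normexp and quantile normalization of them. Dim genes are limited by signal over background, with 21 of the 47 below it on at least 1 array.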

Other observations

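Liver replicate 3 differed from liver 1 and liver 2 in several of the 47 genes, and these were chosen after their values were seen. Adam8 was at 2.74 and 2.68 on liver 1 and 2 and at -0.18 on liver 3. Mmp10 was at 3.73 and 1.71 against -1.64, and Mmp12 at -1.35 and -2.90 against -5.30. Mmp13, the collagenase, was at 0.42 and -2.23 against -3.81. The median range between the replicates of liver was 1.00 for the 47 genes and 0.68 for all genes, while in tail it was 0.56 and 0.59.

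Lung replicate 2, which is in the value table alone, lay within the range of the other 18 samples in 45 of the 47 genes on the scale of raw signals, and within 0.5 of the mean of lung 1 and 3 in 41. It was outside that range for Timp2, at 9.04 against a highest value of 8.96, and for Adamts18. Its Mmp3 level was 3.99, above both lung 1 at 3.57 and lung 3 at 3.81, and the largest gap to them was in Adam8, at 0.45 against 0.0099 and -1.51.

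Second probes of Adam17 and Adamts14 did not follow the brightest one, with r of 0.071 and -0.69 over 18 arrays, so the values of these 2 genes depend on the probe. Those of Timp2 and Mmp11 did follow it, at 0.97 and 0.995.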
